A study of Oryzias latipes with 2 samples.

Results

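*tshba* (ENSORLG00000029251) encodes the beta subunit of thyroid-stimulating hormone (Tsh) of the Japanese medaka. It is 1 of the 18377 genes measured in the female library and 1 of the 18660 measured in the male library, and it was followed here by its identifier through every annotated cell type of both. The libraries are single-cell RNA sequencing (scRNA-seq) of dissociated pituitaries, 1 pooled from 24 females and 1 pooled from 23 males. All fish were adults of about 8 months according to the labels, and all carried the d-rR *lhb*:GFP transgene, in which the promoter of the luteinizing hormone beta gene drives a green fluorescent protein. The labels name no treatment, so sex is the only labelled difference, and with 1 library per sex there are no replicates. The deposited annotation assigns each of the 2592 female and 3804 male cells to 1 of 13 types.

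Tsh is a glycoprotein hormone made by the thyrotropes, and it drives the thyroid follicles to produce thyroid hormone. Like luteinizing hormone (Lh) and follicle-stimulating hormone (Fsh), it consists of a specific beta subunit and an alpha subunit shared by the 3 hormones. The alpha subunit is encoded by *cga*, and the other beta subunits by *lhb* and *fshb*, which mark the Lh and Fsh gonadotropes of the teleost pituitary.

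Transcripts were counted from their 3′ ends with unique molecular identifiers (UMIs), and the level is given below as *tshba* UMIs per 10000 UMIs, either of 1 cell or of all cells of a type summed. The female library held 29300 *tshba* UMIs of 11750195 in all, which is 24.9 per 10000, and the male library 29154 of 17691130, which is 16.5 per 10000. By its UMIs it ranked 74 among the genes of the female library and 92 among those of the male library. Intervals are exact 95% intervals, Poisson for levels and Clopper-Pearson for shares, and they cover counting error only, not the variation between fish or between cells. In all, 16 cell barcodes occurred in both libraries. None of these cells was a thyrotrope, they held 205 female and 26 male *tshba* UMIs, and without them no level or share of a type moved beyond its interval.

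The *tshba* level was highest in the thyrotropes of both libraries. The 69 female thyrotropes had a summed level of 442 UMIs per 10000 (interval 435 to 449) and the 46 male thyrotropes one of 710 (700 to 721). The next type in females was the Lh gonadotropes, at 34.3 (33.6 to 35.0), so that the thyrotropes were 12.9-fold higher (12.6 to 13.2). In males the Lh gonadotropes were at 10.5 (10.2 to 10.8), and the thyrotropes were 67.6-fold higher (65.5 to 69.7). The thyrotropes thus lead in both sexes, while the distance to the Lh gonadotropes was several times larger in the male library.

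Below the thyrotropes, the order of the types differed between the libraries. In females, Lh gonadotropes were followed by the cells annotated as gonadotrope-like at 11.8 (11.4 to 12.2), and by Fsh gonadotropes at 6.53 (5.85 to 7.27). These first 4 levels had intervals apart from each other. From the fifth place on, each type overlapped with its neighbour in the order, from somatolactotropes at 3.67 through *cga*-expressing cells at 3.26, uncharacterized cells at 3.16, red blood cells at 2.79, somatotropes at 2.30, corticotropes at 1.28, lactotropes at 1.24 and melanotropes at 0.883 to macrophages at 0.604. The place of the 15 female somatolactotropes, the cells of the hormone somatolactin, rested on 1 cell with 27 of their 37 *tshba* UMIs, and without it their level was 1.11.

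In males, the second place was held by the *cga*-expressing cells, a type named for the alpha subunit, at 21.1 (19.9 to 22.2). This level rested on few cells, with a median over cells of 0 and an upper quartile of 3.13. Gonadotrope-like cells followed at 12.2 (11.7 to 12.7), Lh gonadotropes at 10.5 and Fsh gonadotropes at 4.75 (4.36 to 5.18), all with intervals apart. Melanotropes at 3.86 and lactotropes at 3.74 overlapped with each other, and somatotropes at 2.22 and uncharacterized cells at 1.76 had intervals of their own. The place of the melanotropes depended on the total, and with hormone-encoding genes left out of it their level was 11.1. Corticotropes at 1.19, red blood cells at 0.743, macrophages at 0.685 and somatolactotropes at 0.199 each overlapped with the next. A single lactotrope held 977 of the 1233 *tshba* UMIs of the 397 male lactotropes, and without it their level was 0.778.

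**Figure D1:**
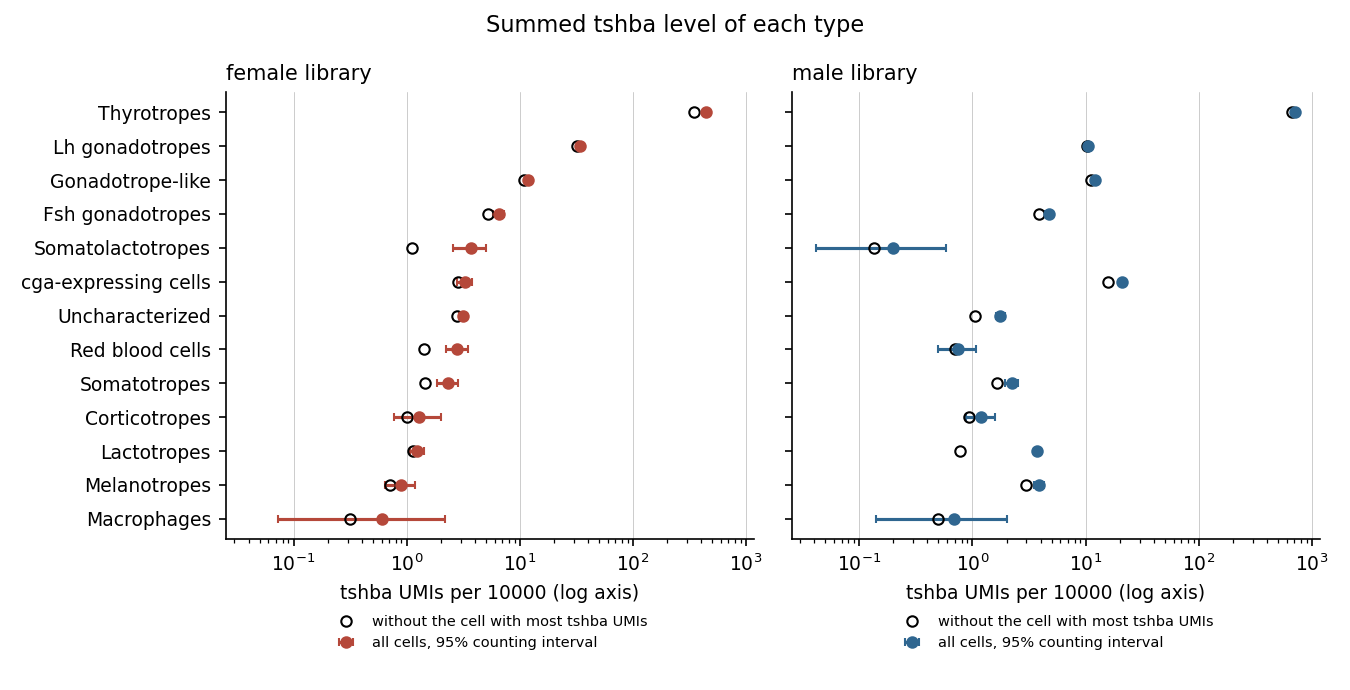
Summed *tshba* level of each type (UMIs per 10000, log axis) in the female and male library, with exact 95% Poisson intervals and, as open circles, the level without the cell of that type with the most *tshba* UMIs. Thyrotropes lie at 442 and 710, Lh gonadotropes at 34.3 and 10.5, and the open circle of the male lactotropes lies at 0.778.

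Between the libraries, the thyrotrope level was 1.61 times as high in males (1.57 to 1.64), and 1.90 times without the highest cell of each. The Lh gonadotropes went the other way, with a level 3.26-fold higher in females (3.15 to 3.37). Gonadotrope-like cells had close levels, with a ratio of male over female of 1.03 (0.974 to 1.09), and so did somatotropes at 0.961 (0.750 to 1.24) and corticotropes at 0.931 (0.536 to 1.68). The level of the *cga*-expressing cells was 6.46-fold higher in males (5.46 to 7.69), and that of the Fsh gonadotropes 1.37-fold higher in females (1.19 to 1.58). The ratio of the *cga*-expressing cells rested on few male cells, and their upper quartile over cells was 3.13 in males and 3.10 in females. The lactotrope level was 3.01-fold higher in males (2.58 to 3.53), but the ratio was 0.680 without the highest cell of each library. Sex and library cannot be told apart here, since each ratio sets 1 pool of fish against another. The thyrotrope levels also moved with the deepest cells, and without the deepest 5% of each library they were 267 in females and 948 in males.

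Although thyrotropes were few, they held the largest share of the *tshba* UMIs in both libraries. In females they were 2.66% of the cells and 2.89% of all UMIs but held 51.3% of the *tshba* UMIs (50.7 to 51.8%). In males they were 1.21% of the cells and held 60.4% (59.8 to 60.9%). The remainder lay mainly in the gonadotrope types. Lh gonadotropes held 33% of the female *tshba* UMIs (32.5 to 33.5%) and 17.7% of the male ones (17.3 to 18.2%), and gonadotrope-like cells 10.3% (9.94 to 10.6%) and 7.48% (7.18 to 7.79%). The *cga*-expressing cells held 0.522% in females and 4.40% in males, of which 83.6% came from 4 cells. Fsh gonadotropes held 1.13% and 1.81%. The female shares depended on the deepest 5% of cells, without which Lh gonadotropes led with 40.3% over thyrotropes with 36.4%, gonadotrope-like cells held 16.8% and *cga*-expressing cells 0.943%.

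**Figure D2:**
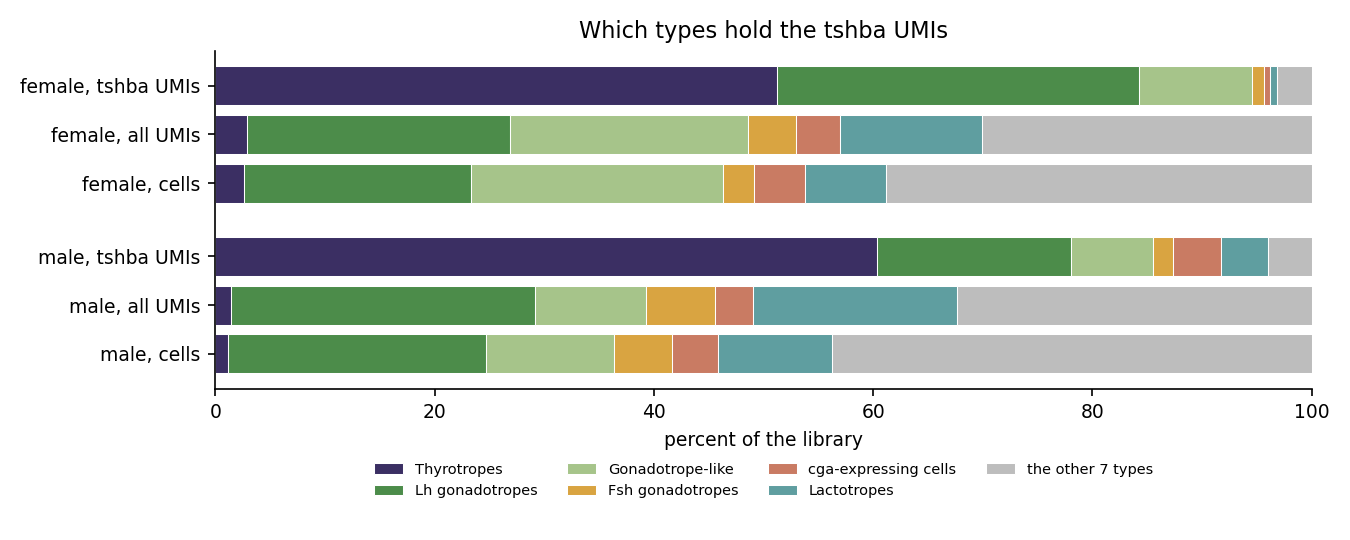
Percent of the *tshba* UMIs, of all UMIs and of the cells of each library that belong to each type, with the smaller types joined as the other 7 types. Thyrotropes are 2.66% and 1.21% of the cells and hold 51.3% and 60.4% of the *tshba* UMIs.

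The transcripts were concentrated in few cells. The 26 female cells with the most *tshba* UMIs, 1% of the library, held 60.2% of them, and among these were 13 thyrotropes and 12 Lh gonadotropes. The corresponding 39 male cells held 69.4%, and 26 of them were thyrotropes and 4 Lh gonadotropes. A total of 14 female and 16 male cells were enough for 50% of the *tshba* UMIs of their library, and 249 and 225 cells for 90%. At the same time, 1292 female cells (49.8%) and 1410 male cells (37.1%) had at least 1 *tshba* UMI.

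The thyrotropes themselves ranged over 3 orders of magnitude. In the female thyrotropes the lowest level was 0, the median 32.8 and the highest 2436 UMIs per 10000. In the male thyrotropes the lowest was 2.98, the median 348 and the highest 3075. Cells were therefore divided by fixed bounds into those with no UMI, above 0 to under 20, 20 to under 200, 200 to under 2000, and 2000 or more. These classes are ranges of a level and not cell types.

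Of the 69 female thyrotropes, 17 had no *tshba* UMI, 15 were under 20, 17 were between 20 and 200, 16 between 200 and 2000, and 4 at 2000 or more. Of the 46 male thyrotropes, 0 had no UMI, 3 were under 20, 14 between 20 and 200, 23 between 200 and 2000, and 6 at 2000 or more. Thus 53.6% of the female thyrotropes (41.2 to 65.7%) and 93.5% of the male thyrotropes (82.1 to 98.6%) were at 20 or more. These shares are over the cells labelled as thyrotropes, and the female one includes the 17 cells with no *tshba* UMI, whose label is examined below. Near that bound, between 16 and 25 UMIs per 10000, lay 1 female and 0 male thyrotropes. Female thyrotropes had a median depth of 2771 UMIs and male ones of 3047. Thinned to 2200 UMIs, the shares were 52.6% and 93.7%, over only the 53 female and 32 male thyrotropes of at least that depth.

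Among the thyrotropes at 200 or more, 9 female cells lay between 200 and 500, from 223 to 373, and 11 above, from 813 to 2436. In males, 2 thyrotropes lay between 500 and 800, 12 between 800 and 2000 and 9 between 200 and 500. The 4 female thyrotropes at 2000 or more had levels of 2025, 2175, 2350 and 2436, and alone held 9445 *tshba* UMIs, 62.9% of those of the type and 32.2% of those of the library. The female thyrotrope with the most *tshba* had 3672 of its 15625 UMIs from this gene, and without it the summed level was 350. The 6 male thyrotropes at 2000 or more ranged from 2032 to 3075 and held 5762 *tshba* UMIs, 32.7% of those of the type.

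**Figure D3:**
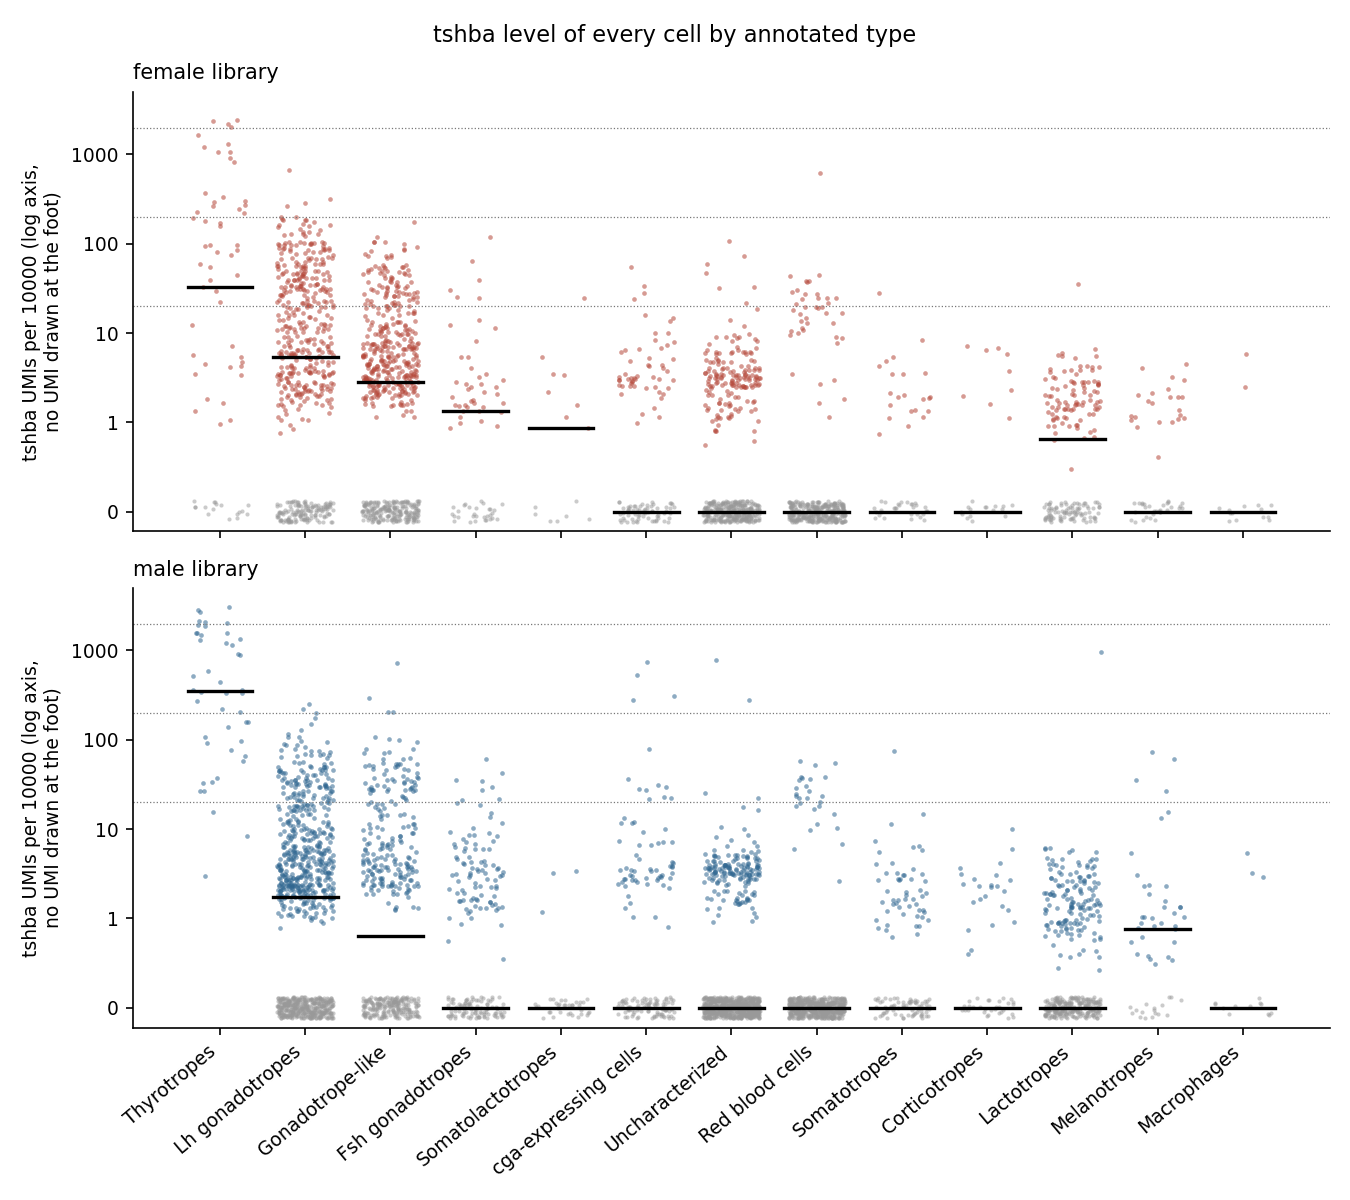
*tshba* level of each cell (UMIs per 10000, log axis) by annotated type in the female and male library, with cells without a UMI in grey at the foot, the median of each type as a black bar and the bounds at 20, 200 and 2000 as dotted lines. Female thyrotropes spread from 0 to 2436 around a median of 32.8, and male thyrotropes from 2.98 to 3075 around one of 348.

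The label of the thyrotropes was checked on the alpha subunit. In thyrotropes at 200 or more, the median level of *cga* was 1153 in the 20 female cells and 1593 in the 29 male cells. In those under 20 it was 39.5 in the 32 female and 45.5 in the 3 male cells. The 17 female thyrotropes with no *tshba* UMI had a median *cga* level of 26.3, a median *lhb* level of 5.93 and a median depth of 2592 UMIs. Their *cga* level ranged from 5.48 to 536, and was at 50.7 or below in all but 2 of them, at 336 and 536. Summed over the 17 cells it was 147, with most of the *cga* UMIs in these 2 cells, which had 10887 and 7089 UMIs in all. The summed *cga* level of the female lactotropes, which make prolactin and use no alpha subunit, was 35.4. The median of the 17 cells, 26.3, compares with 21.5 in the female lactotropes with no *tshba* UMI. ENSORLG00000022653, the gene with the profile over types most like that of *tshba*, had a UMI in 6 of the 17 (35.3%, 14.2 to 61.7%) and in 7.45% of the cells of other types. This gene was picked from these same data, these 17 cells included. Of the other genes described below, *rgs5b* had a UMI in 2 of the 17 (11.8%), *ccl25b* in 0 and ENSORLG00000000704 in 0. In cells of other types their shares were 5.27%, 2.93% and 0.713%. The female median of *tshba* and the female share at 20 or more include these 17 cells. Whether the 17 cells are thyrotropes was not tested, so the difference between the libraries in both values depends on their label.

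Some thyrotropes also held a hormone-encoding gene of another type at 200 or more UMIs per 10000. In females these were 3 cells with *lhb*, with a median depth of 11099 UMIs against 2726 in the others and a median *tshba* level of 3.51. In males they were 8 cells, 7 with *lhb*, 2 with *prl* (prolactin) and 1 with *pomca* (the precursor of corticotropin and melanotropin), with a median depth of 10241 against 2727.5 and a median *tshba* level of 335. Without them the summed *tshba* level was 490 in female and 1144 in male thyrotropes, so that the male level moved by more than 1.5 times. The bound lay above the median *lhb* level of female Lh gonadotropes, at 172 under 20 *tshba* and 95.2 at 20 or more. The level of 490 thus still holds deep thyrotropes with the GFP reporter of the *lhb* promoter at 1651, 1447, 1502 and 1940. These had *lhb* levels of 104, 107, 54.3 and 138 and 10618, 12108, 8287 and 19066 UMIs in all. Barcodes scored as likely doublets had been taken out before deposit according to the methods of the study, and whether remaining barcodes hold several cells was not tested.

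Thyrotropes of low and high *tshba* level differed in the share of cells with a UMI of *rgs5b*, *ccl25b* and ENSORLG00000000704. These genes were picked from these same data, so they cannot show how common such differences are among all genes. The deposited marker table of the male library names *rgs5b*, a regulator of G protein signalling, and *ccl25b*, a chemokine, for the thyrotropes, so their presence in the type is no finding, but the table does not speak of the *tshba* level within it. *rgs5b* had a UMI in 28 of 29 male thyrotropes at 200 or more (96.6%, 82.2 to 99.9%) and in 5 of 14 between 20 and 200 (35.7%, 12.8 to 64.9%). In females it had a UMI in 12 of 20 (60.0%, 36.1 to 80.9%), in 7 of 17 (41.2%, 18.4 to 67.1%) and, under 20, in 5 of 32 (15.6%, 5.28 to 32.8%). The share was highest in the class of highest *tshba* in both libraries, with intervals apart between the 2 male classes and between the highest and lowest female classes. The summed *rgs5b* level was 14.3, 3.40 and 1.92 UMIs per 10000 in the female classes from the highest to the lowest, whereas in males it was 9.76 at 200 or more and 9.46 between 20 and 200, so that the male classes differed in the share of cells with a UMI and hardly in the level. The female level under 20 joins 3.43 in cells with no *tshba* UMI, from 20 UMIs in 2 cells, and 0.912 in those above 0. *rgs5b* also had a UMI in 11 of 15 female and 16 of 38 male somatolactotropes and in 5 and 7 of the 15 macrophages of either library.

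*ccl25b* was distributed in another way. It had a UMI in 10 of 14 male thyrotropes between 20 and 200 (71.4%, 41.9 to 91.6%) but in 2 of 29 at 200 or more (6.90%, 0.846 to 22.8%), although the latter were deeper, at a median of 3782 against 1889 UMIs per cell. In females it had a UMI in 8 of 17 thyrotropes between 20 and 200 (47.1%, 23.0 to 72.2%), in 6 of 20 at 200 or more (30.0%, 11.9 to 54.3%) and in 2 of 32 under 20 (6.25%, 0.766 to 20.8%). The middle class had the highest share in both libraries, with intervals apart from the highest class in males and overlapping in females. Its summed *ccl25b* level was 11.04 in males and 3.29 in females, against 0.514 and 1.75 at 200 or more. In all cells of other types the share with a *ccl25b* UMI was 2.93% in females and 3.70% in males. Most of these UMIs, 228 of 269 and 290 of 367, were in uncharacterized cells, with a *ccl25b* UMI in 8.42% and 9.91% of them and a summed level of 1.12 and 1.06, compared to 1.53 and 2.10 in all thyrotropes.

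A gene without a name in the tables used here, ENSORLG00000000704, was found with high *tshba* alone among the thyrotropes. It was picked for its likeness to *tshba* over the types of these same data, the thyrotropes included. It had a UMI in 10 of 20 female (50%, 27.2 to 72.8%) and 20 of 29 male thyrotropes at 200 or more (69.0%, 49.2 to 84.7%). Below 200 it had a UMI in 0 of 17 female and 0 of 14 male thyrotropes of the middle class, for which the exact upper limits are 19.5% and 23.2%, and in 0 of the 32 female and 3 male thyrotropes under 20. In all other cells its share was 0.713% in females and 1.44% in males. The median depth of the female classes, from the highest *tshba* to the lowest, was 3798.5, 2440 and 2740.5 UMIs, and of the male ones 3782, 1889 and 2420. The part of depth in these shares was not tested.

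**Figure D4:**
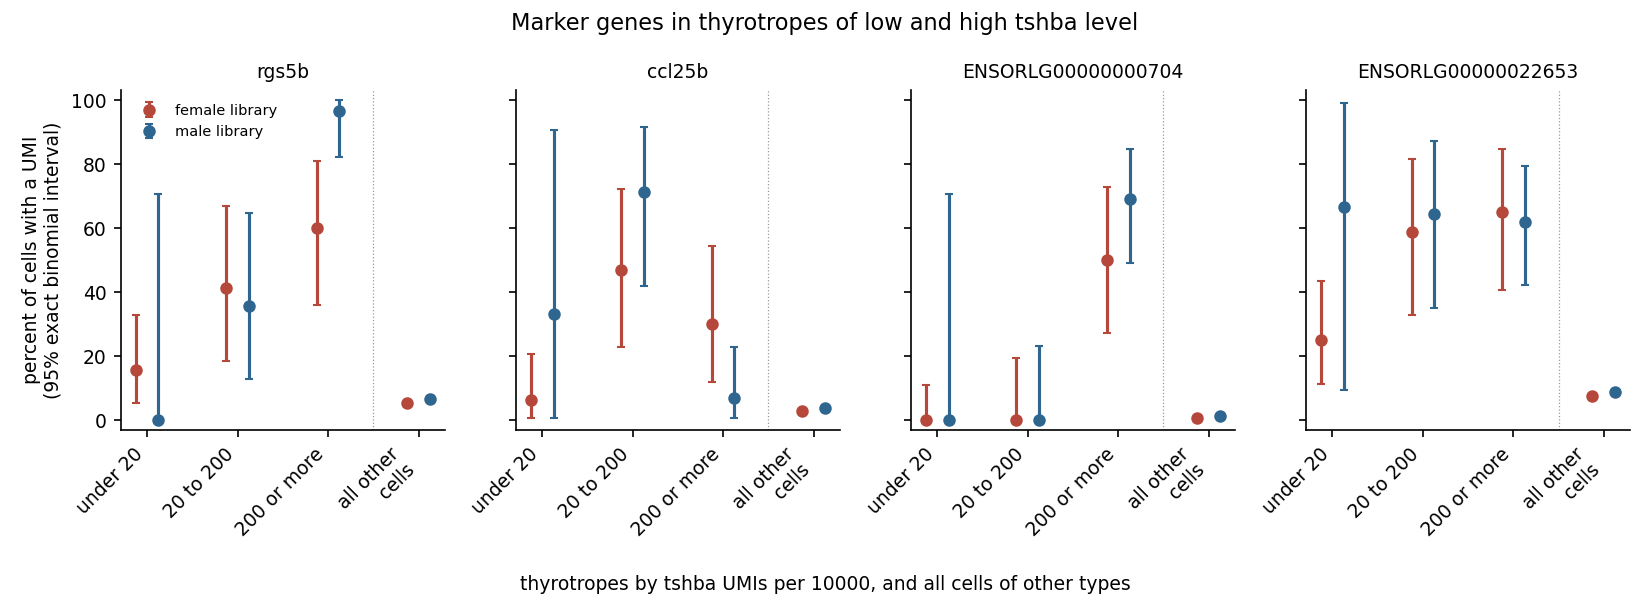
Percent of thyrotropes with at least 1 UMI of *rgs5b*, *ccl25b*, ENSORLG00000000704 and ENSORLG00000022653 in 3 classes of *tshba* level (under 20, 20 to 200, and 200 or more UMIs per 10000), and in all cells of other types, with exact 95% binomial intervals. *rgs5b* reaches 96.6% in male thyrotropes at 200 or more, *ccl25b* 71.4% in those between 20 and 200, and ENSORLG00000000704 is at 0 below 200.

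Over all labelled thyrotropes, the alpha subunit followed *tshba* more closely than any other gene compared. Each gene with a UMI in at least 50% of the thyrotropes of both libraries, 392 in all, was compared with *tshba* over cells, with *tshba* left out of the total. Spearman's rho of *cga* was 0.73 over the 69 female and 0.87 over the 46 male thyrotropes, the highest of these genes when ranked by the smaller of the 2 values. The cells of a library share their preparation, and rho of *tshba* with the total UMIs was 0.17 and 0.37. The female cells include the 17 thyrotropes with no *tshba* UMI, whose median *cga* level was 26.3. Cells low in both genes raise rho, and how closely *cga* follows *tshba* without them was not tested. In both libraries, 6 of the 392 genes (1.53%) had a rho of at least 0.5 and 1 (0.255%) one of -0.5 or below. Among the former was *qpct*, which encodes an enzyme that closes the N-terminal glutamine of peptide hormones to a ring, with a rho of 0.53 and 0.65. The latter was ENSORLG00000014599, which has no name in the tables used here, with -0.52 and -0.67. The sister subunits did not follow, with a rho of 0.20 and -0.07 for *lhb* and of 0.08 and -0.00335 for *fshb*. *rpl7*, which encodes a ribosomal protein, had a rho of -0.31 and -0.50. The total still held *cga*, with median levels of 1153 and 1593 in thyrotropes at 200 or more *tshba* and 39.5 and 45.5 under 20. Whether the part of *cga* in the total lowers the rho of other genes was not tested.

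**Figure D5:**
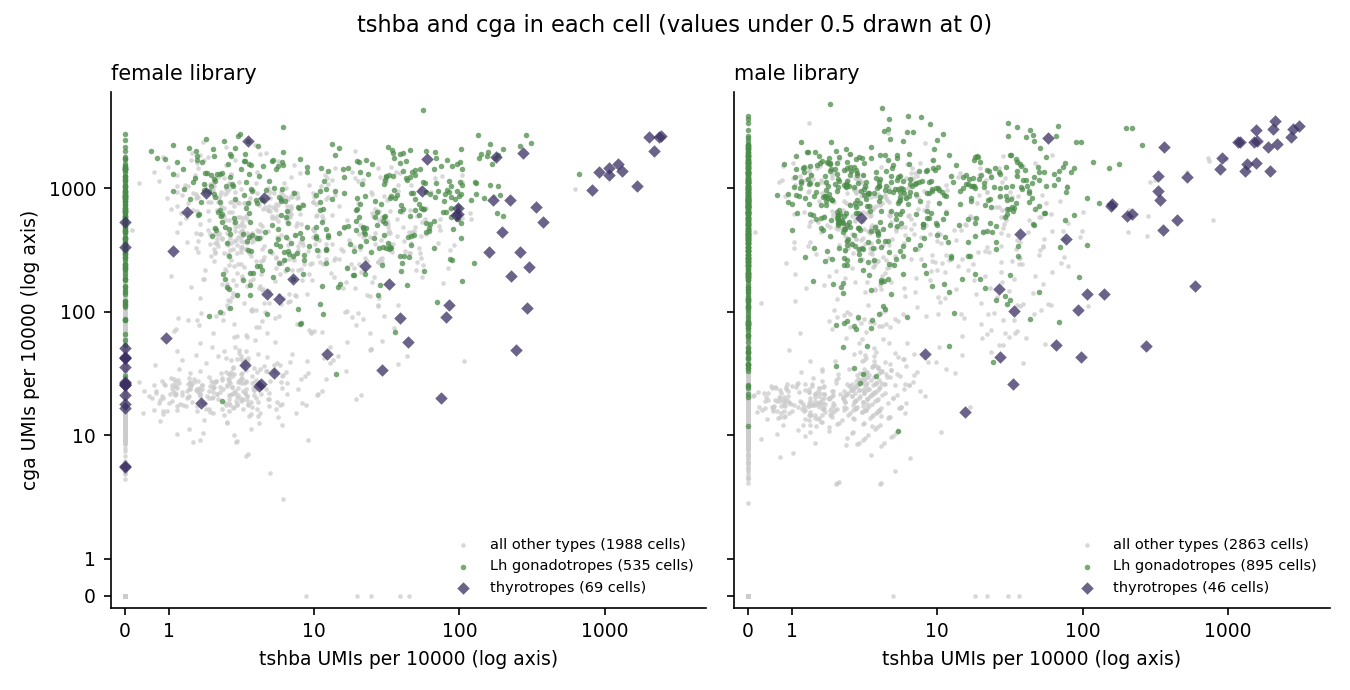
*tshba* level (horizontal) and *cga* level (vertical) of each cell, both in UMIs per 10000 on log axes, with values under 0.5 drawn at 0, for thyrotropes (diamonds), Lh gonadotropes (green) and all other types (grey). Thyrotropes run from low to high in both genes, with a rho of 0.73 in females and 0.87 in males over all of them, cells without a *tshba* UMI included. In Lh gonadotropes rho is 0.17 and 0.22. Their median *cga* level is 541 and 571 in cells without a *tshba* UMI, and 2118 and 2657 in the 6 and 2 cells at 200 or more.

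In the Lh gonadotropes, *tshba* was frequent but lower than in the thyrotropes. Of the 535 female Lh gonadotropes, 146 had no UMI, 219 were under 20, 164 between 20 and 200, and 6 between 200 and 2000. Of the 895 male Lh gonadotropes, these numbers were 388, 392, 113 and 2. At 20 or more were 31.8% of the female (27.8 to 35.9%) and 12.8% of the male Lh gonadotropes (10.7 to 15.2%), with 17 cells of each library between the bound and 25 UMIs per 10000, and 13 and 25 cells between 16 and the bound. In doubling steps of the level from under 2.5 to 160, the female cells with a UMI numbered 54, 62, 54, 49, 61, 55 and 40, with 13 between 160 and 320 and 1 above, and the male ones 139, 114, 84, 55, 59, 41 and 11, with 4 between 160 and 320. Counted in these doubling steps, the female cells with a UMI had similar numbers up to 80 UMIs per 10000, whereas the male cells thinned out toward high levels. The steps under 10 hold cells of few UMIs, with at least 5 *tshba* UMIs in 0 of 54, 1 of 62 and 11 of 54 female cells. Female lactotropes numbered 64, 27 and 6 in the same steps. The counts therefore cannot show whether the Lh gonadotropes fall into separate classes.

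Within the Lh gonadotropes, cells with more *tshba* had a lower median *lhb* level in females and nearly the same one in males. The median *lhb* level of cells at 20 or more *tshba* against those under 20 was 95.2 against 172 in females and 535 against 540 in males. The median *cga* level was 841 against 629 in females and 1019 against 699 in males, and the median depth 5609 against 4213 and 6192 against 4617.5 UMIs. *rgs5b* had a UMI in 2 of 170 female (1.18%) and 5 of 115 male Lh gonadotropes (4.35%) at 20 or more. Over all Lh gonadotropes the shares were close to these, at 1.68% and 2.57%, and over all thyrotropes they were 34.8% and 71.7%.

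The gonadotrope-like cells had close shares at 20 or more in the 2 libraries, although the median level was 2.86 in females and 0.629 in males. At 20 or more were 92 of 597 female cells (15.4%, 12.6 to 18.6%) and 67 of 444 male cells (15.1%, 11.9 to 18.8%), and these held 75.2% and 80.8% of the *tshba* UMIs of the type. Their median *lhb* level was 21.0 in females and 30.8 in males, against 28.4 and 50.9 in the cells under 20, and *cga* was at 436 and 380 against 366 and 415. A level of 200 was reached by 0 female and 4 male cells of this type. Fsh gonadotropes at 20 or more numbered 6 of 72 in females (8.33%, 3.12 to 17.3%) and 8 of 198 in males (4.04%, 1.76 to 7.81%).

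Free RNA in the droplets can add *tshba* UMIs to cells that do not make it, and the lactotropes were used as the measure of this background. A *tshba* UMI was found in 51.0% of female lactotropes and 38.5% of male lactotropes, at median depths of 6447 and 5763 UMIs, but only 1 of 192 and 1 of 397 cells were at 20 or more. Thinned to 2200 UMIs, the share of cells with a UMI was 22.6% in female and 15.1% in male lactotropes, compared to 62.9% and 41.7% in Lh gonadotropes and 68.1% and 98.4% in thyrotropes, after leaving out 10 and 20, 51 and 72, and 16 and 14 shallower cells. The share of Lh gonadotropes with a UMI was above that of the lactotropes at equal total depth in both libraries. Shares at or below that of the lactotropes, as in somatotropes (20.5%), corticotropes (19.8%), melanotropes (15.2%), red blood cells (14.2%) and macrophages (13.9%) of the female library, cannot be told apart from background by this measure, the last 2 on 21 and 4 cells of that depth. The 2200 UMIs include the hormone-encoding genes of each type. The summed *pomca* level was 5736 in female melanotropes, and that of *prl* was 2475 in female lactotropes. Melanotropes thus kept fewer UMIs of other genes, and their lower share cannot place them below background. With hormone-encoding genes out of the total, the female melanotrope level moved from 0.883 to 2.11. In the male library the shares of uncharacterized cells (14.02%), macrophages (12.2%), red blood cells (5.87%) and somatolactotropes (5.54%) were below that of the lactotropes. Those of somatotropes (19.1%), corticotropes (20.5%) and melanotropes (23.3%) were above it, on 125, 54 and 49 cells. For somatotropes and corticotropes the shares were close to the female ones, and it was the lactotrope share that was lower in males. Whether these 3 male shares exceed background was not tested.

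RNA from 1 source keeps its genes in 1 ratio, so *tshba* was also set against *prl* in types that make no prolactin. The ratio of *tshba* to *prl* UMIs in macrophages was 0.0294 in females and 0.0291 in males, on 2 and 3 *tshba* UMIs, and in corticotropes 0.0888 and 0.0767, on 19 and 47. In Lh gonadotropes it was 2.35 and 0.659, in gonadotrope-like cells 0.671 and 0.631, and in Fsh gonadotropes 0.439 and 0.149. In melanotropes it was 0.0624 and 0.238, so that the male value was above that of the male Fsh gonadotropes, and in red blood cells 0.132 and 0.0196. In female somatolactotropes it was 0.199, and 0.0595 without the cell with the most *tshba*. Lh gonadotropes and gonadotrope-like cells were above all of these in both libraries. Red blood cells had 16 female and 17 male cells at 20 or more, but with median depths of 366 and 326 UMIs in these cells 1 UMI alone reached the bound. The most *tshba* UMIs in a male red blood cell were 2, and 1 female red blood cell had 41.

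A few cells outside the thyrotropes reached 200 or more *tshba* UMIs per 10000. In females these were 6 Lh gonadotropes, from 201 to 665 UMIs per 10000, and 1 red blood cell at 624 with 41 *tshba* and 65 *cga* UMIs among 657. In males they were 4 *cga*-expressing cells, 4 gonadotrope-like cells, 2 Lh gonadotropes, 2 uncharacterized cells and 1 lactotrope, from 206 to 970. All 6 female Lh gonadotropes held more *cga* than *tshba*, and their *lhb* levels ranged from 13.2 to 319. The male lactotrope had 977 *tshba*, 1719 *cga* and 1062 *prl* UMIs among 10077, and its depth lay at percentile 92.4 of the library. No other of the 13 male cells had more than 20 *prl* UMIs. Of the 13 male cells, 6 had a UMI of *rgs5b* (46.2%, 19.2 to 74.9%) and 4 one of ENSORLG00000000704, compared to 6.73% and 1.44% of all male cells that were not thyrotropes. Of the 7 female cells, 1 had each of them.

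The 4 male *cga*-expressing cells at 281, 312, 525 and 736 UMIs per 10000 had *cga* levels from 596 to 1651 and *lhb* levels from 11.3 to 26.8. They held 83.6% of the *tshba* of their type, and with 13 of 160 cells (8.13%, 4.40 to 13.5%) at 20 or more, against 4 of 120 in females (3.33%, 0.916 to 8.31%), the higher male level of this type rested on few cells. The uncharacterized cells of the male library were similar, with 193 of their 482 *tshba* UMIs in 1 cell and a level of 1.06 without it. The male melanotropes had 376 *tshba* UMIs at a level of 3.86, and 2.97 without the highest cell, and their median depth of 18325 UMIs was the highest of all types.

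The *tshba* transcripts were read almost only from exons. Of the *tshba* UMIs that the deposited region tables assign, 28516 in females were from exons, 188 from reads that span an exon and an intron and 29 from introns. In males these were 28798, 84 and 31. Exons thus gave 99.2% of the female and 99.6% of the male *tshba* UMIs, against 77.7% and 82.0% over all genes. The share of spanning UMIs was 0.654% (0.564 to 0.754%) in females and 0.291% (0.232 to 0.360%) in males, far below that of *cga*, at 18.1% and 10.5%, of *lhb*, at 12.9% and 7.68%, and of *fshb*, at 11.7% and 7.51%, and above that of *prl*, at 0.189% and 0.110%. The lower male value was shared by these other hormone-encoding genes and by all genes together, at 9.40% in females and 6.29% in males.

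The exon share of *tshba* was close in the types that hold most of it. It was 99.3% in female thyrotropes, 99.3% in female Lh gonadotropes, 99.7% in male thyrotropes and 99.7% in male Lh gonadotropes. Spanning UMIs were found in 20 female and 22 male thyrotropes and in 42 female and 9 male Lh gonadotropes, with at most 18 in 1 cell, the cell of 3672 *tshba* UMIs. In females, gonadotrope-like cells had a spanning share of 1.08% (0.742 to 1.52%) against 0.570% (0.455 to 0.705%) in thyrotropes, with intervals apart. In males these were 0.323% (0.130 to 0.665%) and 0.275% (0.203 to 0.365%), with overlapping intervals.

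The profile of *tshba* over the 13 types was compared with that of every other gene with at least 100 UMIs in each library, 7414 in all, by Pearson's r of the natural log of 1 plus the summed level. The 13 points of a library share its preparation, and with the thyrotropes left out, 0 of the 10 genes most like *tshba* were again among the first 10. In both libraries 4 genes (0.054%) had an r of at least 0.8, and 0 genes (0.0%) one of at least 0.9. The most alike was ENSORLG00000022653, with 0.85 in females and 0.84 in males, followed by ENSORLG00000000704 with 0.83 and 0.86. The first had a UMI in 44.9% of female and 63.04% of male thyrotropes against 7.45% and 8.70% of all other cells, and, unlike ENSORLG00000000704, also in 25% of the female thyrotropes under 20. In male thyrotropes its share hardly differed between the classes, at 62.1% at 200 or more, 64.3% between 20 and 200 and 66.7% under 20. The female shares of the higher 2 classes were 65.0% and 58.8%. None of the 10 genes most like *tshba* has a name in the tables used here.

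Of the named genes, *cga* came first, in place 11 with an r of 0.73 and 0.73. Its summed level was 979 in female thyrotropes and 1009 in female Lh gonadotropes, and 1219 and 961 in males. Summed over each type, the alpha subunit was thus at a similar level in the 2 types where *tshba* differed 12.9-fold and 67.6-fold. The thyrotrope sums join unlike cells. In thyrotropes with a *tshba* level of 200 or more, the summed *cga* level was 1673 in females and 1531 in males, above that of all Lh gonadotropes. In thyrotropes between 20 and 200 it was 955 and 433, and in those under 20 it was 506 and 503. These sums rested on a few deep cells, and the medians over cells were 303 and 140, and 39.5 and 45.5. Of the 3 male cells under 20, 1 had 30171 UMIs and a *cga* level of 571, and the others were at 45.5 and 15.4. Per *tshba* UMI there were 2.22 and 1.72 *cga* UMIs in thyrotropes, and 29.4 and 91.5 in Lh gonadotropes. *lhb* was in place 114, with 0.74 and 0.53, and the GFP reporter of its promoter in place 232. *nr5a1b*, which encodes a homologue of the gonadotrope transcription factor Sf1, had a summed level of 6.09 in female and 3.63 in male thyrotropes, against 20.4 and 12.04 in Lh gonadotropes.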

How the data were processed

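Pituitaries were dissociated with trypsin, and 10x Chromium 3′ chemistry of version 2 was used for both libraries. The files the authors deposited hold the raw UMI count of each gene in each cell, separate counts from exons, introns and spanning reads, and a table with the cluster, type and total UMI count of each cell. Cell Ranger and Seurat are named in the submitters' processing notes, without versions. Build and gene models, not given in the sources used, were not needed, and no coordinates are printed. The cell numbers equal those in the methods of the paper, after its removal of likely doublets. The matrix sums equal the deposited total count in all 2592 female and 3804 male cells. The exon, spanning and intron counts of *tshba* sum to more than the matrix in 12 female and 23 male cells, and to less in total. Median depth was 3757.5 UMIs per cell in females and 3421.5 in males.

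*tshba*, *lhb*, *fshb* and the other hormone-encoding genes were identified by the primer table of the paper, and *cga*, *nr5a1b*, *rgs5b*, *ccl25b* and *qpct* by the authors' deposited marker tables, whose mean expression (signal) and adjusted p-values, which are the authors' own, were not used. The deposited cell types are labels (other) and were taken as they are, with 1 male cell of a respelled type joined to the Lh gonadotropes. A list of further thyrotrope genes, such as *pou1f1*, *trhr* and *dio2*, was not analysed here, since 0 identifiers of the matrix matched the table of gene names. Members, bounds and lists were chosen with earlier results of these data known. The named genes are the hormone-encoding genes, *rpl7*, the 10 genes most like *tshba* over types and the 5 of each sign over thyrotropes, of which at most 2 without a name are given per direction. *rgs5b*, *ccl25b* and *nr5a1b* were added after their values were seen.

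Levels are UMIs per 10000 UMIs. No test between sexes or types was made, since each sex is 1 library and cells are not replicates. Thinning used the exact hypergeometric expectation at 2200 UMIs, at which 5 UMIs correspond to 20 or more per 10000. The alternatives count exon UMIs only, weight cells equally, leave hormone-encoding genes, the deepest 5% of cells, the highest cell or red blood cells out, or move the bounds. Python 3.11.15 with numpy 2.4.6, scipy 1.17.1, pandas 2.3.3 and matplotlib 3.10.9 was used. The likeness measure was tested on simulated counts.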

Additional observations from a re-analysis of the deposited data

Results flagged for a closer look

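Pairs of types whose *tshba* levels were ordered one way in the female library and the other way in the male library, with Poisson intervals apart in both and also without the highest cell of each type, are given here. The differences between the libraries were not tested, since each sex is 1 library. Lh gonadotropes were above gonadotrope-like cells in females, at 34.3 against 11.8 UMIs per 10000, and below them in males, at 10.5 against 12.2. The *cga*-expressing cells were below Lh gonadotropes, gonadotrope-like cells and Fsh gonadotropes in females, at 3.26 against 34.3, 11.8 and 6.53, and above all 3 in males, at 21.1 against 10.5, 12.2 and 4.75. Of the 1282 *tshba* UMIs of the 160 male *cga*-expressing cells, 4 cells held 327, 294, 255 and 196. The male place of this type thus rested on few cells, and leaving out only the highest cell keeps the others of these 4 in. Over cells, the upper quartile of this type was 3.13 in males and 3.10 in females. In male Lh gonadotropes, gonadotrope-like cells and Fsh gonadotropes it was 5.99, 6.40 and 3.15, so the male order of the summed levels does not hold for the upper quartiles. The order of the summed levels without all 4 was not tested. Melanotropes were below somatotropes, uncharacterized cells and red blood cells in females, at 0.883 against 2.30, 3.16 and 2.79, and above them in males, at 3.86 against 2.22, 1.76 and 0.743. Somatotropes were below uncharacterized cells in females, at 2.30 against 3.16, and above them in males, at 2.22 against 1.76, but below them at 1.72 against 2.11 as means of the per-cell levels. With hormone-encoding genes out of the total, female melanotropes were at 2.11, against 3.14 in somatotropes, 3.27 in uncharacterized cells and 2.83 in red blood cells. Male melanotropes moved from 3.86 to 11.1 under the same setting. Without the deepest 5% of cells, female somatotropes were at 0.930 and melanotropes at 0.718. In males, the melanotropes' share of the *tshba* UMIs of the library fell from 1.29% to 0.123% under this setting. The median level of the male melanotropes over cells was 0.762, against their summed level of 3.86. Median depths of melanotropes were 9160.5 and 18325 UMIs, and their part in the order was not tested.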

How the results depend on the processing

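No paired analysis was possible because each sex is 1 library and the labels give no replicates, so no replicate could be left out either. Counting exon UMIs only gave thyrotrope levels of 533 in females and 796 in males, and Lh gonadotrope levels of 40.8 and 11.7. The mean of the per-cell levels gave 306 and 799.8 for thyrotropes, and 25.8 and 8.96 for Lh gonadotropes. With hormone-encoding genes out of the total, these were 525 and 998, and 40.2 and 12.7. Without the deepest 5% of cells they were 267 and 948, and 27.3 and 8.98. Without the cell with the most *tshba* UMIs they were 350 and 664 for thyrotropes and 32.0 for female Lh gonadotropes. The thyrotrope levels without the cells that hold another hormone-encoding gene, an alternative chosen after seeing the data, were 490 and 1144.

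The thyrotropes' share of the *tshba* UMIs was 47.7% and 64.3% when each cell counted by its level, 46.5% and 62.7% without the top cell of the library, and 36.4% and 62.66% without the deepest 5% of cells. That of the Lh gonadotropes was 31.1% and 14.02%, 36.9% and 19.7%, and 40.3% and 15.7% under the same settings, so that in females it was above the thyrotropes' share without the deepest cells. The share of Lh gonadotropes past the bound was 40.9% and 18.99% at 10 UMIs per 10000, and 20.4% and 6.26% at 40. At least 2 *tshba* UMIs were found in 60.9% of female thyrotropes, and in 56.8% and 36.2% of Lh gonadotropes. After thinning to 2200 UMIs, 62.9% and 41.7% of the 484 and 823 Lh gonadotropes of at least that depth had a UMI. The top 1% of cells held 49.5% and 71.4% when ranked by level and 58.6% and 67.2% without red blood cells. Of the 10 genes most like *tshba*, 1 was again among the first 10 by Spearman's rho, 0 without thyrotropes and 2 with at least 500 UMIs per library.

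For the thyrotropes, the Lh gonadotropes and the values over the library, 49 values moved beyond their counting interval under an alternative and 49 did not. For the other types, 153 moved and 307 did not. The counting interval covers none of the variation between cells.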
